A study of Mus musculus with 4 samples.

Results

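The MYC, MAX and MXD network was examined in RNA-seq libraries of 32Dcl3-Abl1ko cells. 32Dcl3 is a blood cell line of the mouse whose growth requires interleukin-3 (IL-3), and Abl1 had been knocked out in it by CRISPR/Cas9. The members were the rows of the deposited gene table whose symbol was Myc, Mycn, Mycl, Max, Mxd1, Mxd3, Mxd4, Mxi1, Mnt or Mlx. Of these 10 names, 9 were found among 23756 genes, and Mycl was not analysed here. All 9 genes passed the filter for expression. Both groups carried the Abl1 knockout: Abl1ko/IL3+ cells were kept with IL-3 (2 libraries) and Abl1ko/IL3- cells grew without it (2 libraries). The 32Dcl3-Abl1 cells with IL-3 were not analysed here, so no Abl1 wild-type group enters the comparison. The knockout came from lentiviral guides followed by selection of single clones, and the IL-3-independent cells had grown out during a gradual withdrawal of the factor. The sources do not tie a guide or a clone to a library. Effects of IL-3 itself and of the outgrowth of particular cells therefore cannot be told apart. The replicates are described as biological duplicates.

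MYC, MYCN and MYCL are basic helix-loop-helix leucine zipper (bHLHZ) transcription factors that bind DNA as dimers with MAX. MYC-MAX dimers activate genes of growth, ribosome production and metabolism from E-box sites, of which CACGTG is the canonical form. The MXD proteins (MXD1, MXD3, MXD4 and MXI1) and MNT compete for MAX, occupy the same sites and recruit the SIN3-HDAC corepressor. In hematopoietic cells MYC is characteristic of dividing progenitors, and MXD proteins of cells that leave the cycle and mature. MLX is a MAX-like partner which pairs with MXD1, MXD4 and MNT and with the glucose-sensing factors MLXIP (MondoA) and MLXIPL.

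Promoter windows of RefSeq (GRCm38.p6), each running from 250 bases before to 50 bases after a transcription start, were searched for CACGTG. The motif reads the same on both strands and was the only one searched. Windows matched 9 of the 10 names, all but Myc, and 4 of these 9 genes held the motif: Max, Mlx, Mnt and Mxd4. It occurred in 11.2% of the 10308 tested genes that had a window and in 7.15% of all 32851 windows. The sites are shown because they are the letters that the network's own proteins bind. Each is printed with 12 bases on either side, in the direction of transcription, and the motif is in capitals.
Max, first motif base 3 bases before the start, chr12:76962234-76962263, minus strand: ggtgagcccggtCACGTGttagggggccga
Mlx, 40 bases before the start, chr11:101087238-101087267, plus strand: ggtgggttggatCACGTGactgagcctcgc
Mnt, 123 bases before the start, chr11:74830789-74830818, plus strand: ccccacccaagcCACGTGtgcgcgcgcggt
Mxd4, 219 bases before the start, chr5:34187912-34187941, minus strand: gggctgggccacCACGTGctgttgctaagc

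The 250 bases before the Mxd4 start, from chr5:34187711-34187960 on the minus strand, are given whole because Mxd4 was the member whose groups lay farthest apart. The motif is in capitals and stands near the distal end of the window, which had a GC content of 58.0%.
Mxd4 promoter: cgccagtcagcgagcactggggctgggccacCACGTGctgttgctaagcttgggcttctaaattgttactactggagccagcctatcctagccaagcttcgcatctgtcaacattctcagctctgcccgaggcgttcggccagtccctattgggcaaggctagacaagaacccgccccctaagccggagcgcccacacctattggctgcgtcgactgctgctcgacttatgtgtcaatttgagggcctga
A match is a description of the sequence and does not show binding.

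Library totals ranged from 48953174 to 60382588 counts, so that 3 counts, taken as the floor, were 0.0497 to 0.0613 CPM (counts scaled to library size). Normalized levels are TMM-scaled CPM, in which each library's total is corrected for its composition. Abl1, knocked out in both groups, still had 20.5 and 40.9 CPM with IL-3 and 32.3 and 38.9 CPM without, so its RNA level does not check the labels. GEO's labels call the cells pre-B-cells, but 6 of 8 pre-B markers found in the table summed to only 19.0 to 26.0 CPM, and Rag1 was at 0 counts in 3 libraries. Cd79b, the most abundant of them on average, was present in every library, at 16.2 and 11.2 CPM with IL-3 and 14.4 and 15.1 CPM without. Cd79a had 0.667 and 11.7 CPM with IL-3 and 1.73 and 1.69 CPM without, so it exceeded Cd79b in Abl1ko/IL3+ replicate 2. The 10 myeloid progenitor markers summed to 1399 to 4105 CPM, with Mpo (myeloperoxidase) and Csf2rb2, a receptor subunit for IL-3, the most abundant. Of the other progenitor markers, Kit had at most 4 counts. Maturing neutrophil markers summed to 944 and 358 CPM with IL-3 and to 963 and 5455 CPM without it, and Ngp, a granule protein, took 4003 CPM in Abl1ko/IL3- replicate 2. Those for mast cells and basophils summed to 250 to 1444 CPM, for erythroid cells to 400 to 7420 CPM, for macrophages to 59.4 to 314 CPM and for T cells to at most 5.31 CPM. The erythroid sum was lowest in Abl1ko/IL3+ replicate 1 and highest in Abl1ko/IL3+ replicate 2.

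No member passed the adjusted threshold of 0.05 in edgeR's quasi-likelihood test of Abl1ko/IL3- against Abl1ko/IL3+ (0 of 9, against 0% of the 16535 genes tested). Mxd4 alone had an unadjusted p under 0.05 in edgeR (1 of 9, against 5.91% of all genes tested). Both Abl1ko/IL3- libraries lay below both Abl1ko/IL3+ libraries for 2 members, Myc and Mxd4 (22.2%, against 17.9% of all genes tested), and above them for 0 members (against 19.4%). The median log2 fold change of the 9 members was 0.029, beside -0.027 for all genes, with 5 members higher and 4 lower without IL-3. The members' median was 0.30 without Abl1ko/IL3+ replicate 2 and -0.29 without Abl1ko/IL3- replicate 2. DESeq2's Wald test on the same genes called 1 member, Mxd4, where it called 1.64% of all genes. The common biological coefficient of variation was 54.0%, and an exact permutation test of 2 libraries against 2 cannot give a two-sided p below 0.333.

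**Figure D1:**
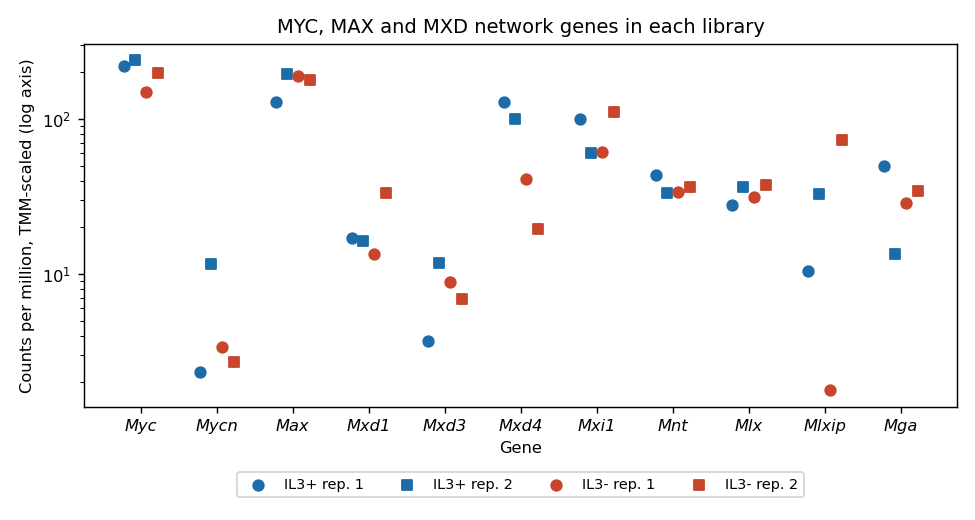
Level of each network gene in each library, as TMM-scaled CPM on a log axis; blue points are Abl1ko/IL3+ libraries, red points Abl1ko/IL3- libraries, circles replicate 1 and squares replicate 2. Heights compare libraries within a gene and not genes with each other, since CPM is not corrected for length. For Mxd4 both red points (41.2 and 19.5) lie below both blue points (130 and 99.9), and for Mlxip the red points are the lowest and the highest of the 4.

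Among the MYC genes, Myc itself was expressed at a high level in every library. Myc (ENSMUSG00000022346), on chromosome 15 from 61985391 to 61990350, plus strand, gave 14254 and 13003 counts in Abl1ko/IL3+ cells and 7149 and 11572 in Abl1ko/IL3- cells. On the CPM scale this was 221 and 239 with IL-3 and 149 and 199 without. Both Abl1ko/IL3- libraries were thus below both Abl1ko/IL3+ libraries, with a distance of 1.11-fold between the nearest libraries of different groups. That distance was smaller than the 1.33-fold between the Abl1ko/IL3- replicates. The log2 fold change was -0.40 (standard error 0.33, edgeR adjusted p = 0.920), and it was -0.21 without Abl1ko/IL3- replicate 1 and -0.62 without Abl1ko/IL3- replicate 2.

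Mycn, the paralog best known from neural and embryonic tissue, was low (ENSMUSG00000037169, chromosome 12, 12936093 to 12941914, minus strand). Its counts were 150 and 626 in Abl1ko/IL3+ cells and 161 and 157 in Abl1ko/IL3- cells, or 2.33, 11.5, 3.36 and 2.70 CPM in the same order. Only Abl1ko/IL3+ replicate 2 stood apart, and the other 3 libraries were alike. Its log2 fold change of -1.19 (standard error 0.85, edgeR adjusted p = 0.901) rested on that library and was 0.38 without it.

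Max, the obligate partner of the MYC proteins, differed between groups by less than the Abl1ko/IL3+ replicates differed from each other. Max (ENSMUSG00000059436, chromosome 12, 76937269 to 76962201, minus strand) gave 8283 and 10677 counts in Abl1ko/IL3+ cells and 9023 and 10448 in Abl1ko/IL3- cells, equal to 128 and 196 CPM against 189 and 180 CPM. Abl1ko/IL3+ replicate 1 was the lowest library and the other 3 lay close together. The log2 fold change was 0.18 (standard error 0.35, edgeR adjusted p = 0.976), and it was -0.076 without Abl1ko/IL3+ replicate 1.

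Mlx (ENSMUSG00000017801, chromosome 11, 101087277 to 101092207, plus strand), which links the MXD proteins to the glucose-sensing branch, overlapped between groups. It had 28.0 and 36.6 CPM with IL-3 and 31.5 and 37.5 CPM without, with replicate 2 the higher library in each group. The log2 fold change was 0.094 (standard error 0.35, edgeR adjusted p = 0.990). Psmc3ip, on the opposite strand, covers 19.3% of the exon bases of Mlx in GENCODE M21, and whether counting used strand is not given in the sources used here, so reads of the 2 genes may not have been told apart.

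The further partners of the network differed widely between libraries of one group. Mlxip, the MondoA gene and a partner of MLX, gave 677 and 1774 counts in Abl1ko/IL3+ cells against 85 and 4247 in Abl1ko/IL3- cells. The Abl1ko/IL3- libraries, at 1.78 and 73.2 CPM, were the lowest and the highest of the 4, and its log2 fold change was 0.80 (standard error 1.54, edgeR adjusted p = 0.976). Mga, a MAX partner that also carries a T-box domain, had 49.7 and 13.5 CPM with IL-3 and 28.7 and 34.3 CPM without, with a log2 fold change of -0.0038 (standard error 0.66). Txnip, which MLXIP-MLX dimers activate when glucose is taken up, gave 72021 and 16755 counts in Abl1ko/IL3+ cells against 4020 and 27836 in Abl1ko/IL3- cells. Klf10, another target, had 50.2 and 14.6 against 0.836 and 47.4 CPM. Mlxip, Txnip and Klf10 were each at their lowest in Abl1ko/IL3- replicate 1. That was not particular to this branch, since genes of other lists were lowest there too. Skp2 had 14.1 and 20.1 CPM with IL-3 and 0.669 and 15.8 CPM without, and Cdc25a had 27.2 and 46.0 against 3.68 and 27.2 CPM. Others, such as Max, were lowest in another library. The highest library was Abl1ko/IL3- replicate 2 for Mlxip, and Abl1ko/IL3+ replicate 1 for Txnip and Klf10. Mlxipl and Pklr were not analysed here, and of the MLX-partner targets Txnip and Klf10 were the 2 tested, with 0 past the threshold. Arrdc4, another of these targets, had at most 7 counts and was not tested.

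Of the antagonists, Mxd4 had the lower levels without IL-3 in both libraries. Mxd4 (ENSMUSG00000037235, chromosome 5, 34173883 to 34187710, minus strand) encodes an MXD repressor of MYC-driven transcription. Its counts were 8348 and 5433 in Abl1ko/IL3+ cells and 1971 and 1133 in Abl1ko/IL3- cells. In CPM the Abl1ko/IL3+ libraries held 130 and 99.9 and the Abl1ko/IL3- libraries 41.2 and 19.5. The groups did not overlap, and the nearest libraries of different groups were 2.43-fold apart, where replicates of one group differed by 1.30-fold with IL-3 and 2.11-fold without. The fitted level was 3.78-fold lower without IL-3, a log2 fold change of -1.92 (standard error 0.48). This was not past the threshold in edgeR (adjusted p = 0.727), while DESeq2 gave an adjusted p = 0.0445, and over the alternatives run the adjusted p lay between 0.0445 and 0.9999. The log2 fold change lay between -2.55 and -1.47 when single libraries were left out. An antisense gene, Gm42846, shares 6.06% of its exon bases and was not analysed here. Mpo, the most abundant of the 10 progenitor markers, had the same order of libraries as Mxd4 (1879 and 1477 CPM with IL-3, 908 and 499 CPM without). The markers' sum had that order too (4105 and 2817, then 2138 and 1399 CPM), while each of the other markers alone had another order. Of the 9 tested, 2 did not overlap and were lower without IL-3 (22.2%, against 17.9% of all genes). The part of progenitor cells in the Mxd4 level was not tested.

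Mxd1 (ENSMUSG00000001156, chromosome 6, 86647042 to 86669161, minus strand), the MXD gene best known from maturing granulocytes, was high in 1 library. Its counts were 1093 and 887 in Abl1ko/IL3+ cells and 648 and 1924 in Abl1ko/IL3- cells, or 17.0 and 16.3 CPM against 13.5 and 33.1 CPM. The Abl1ko/IL3- libraries were the lowest and the highest. The log2 fold change was 0.49 (standard error 0.53, edgeR adjusted p = 0.942), and it was -0.29 without Abl1ko/IL3- replicate 2. That library also had the highest summed neutrophil markers (5455 CPM, against 358 to 963 in the others), of which Ngp took 4003 CPM. Of the 9 neutrophil markers tested, 7 had a positive log2 fold change and 2, Cxcr2 and Mmp9, a negative one. Groups did not overlap for 5 of the 9, all higher without IL-3 (55.6%, against 19.4% of all genes). S100a9, among these 5, had 7.14 and 1.64 CPM with IL-3 and 141 and 370 CPM without. The part of maturing neutrophils in the Mxd1 level was not tested.

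Mxd3 (ENSMUSG00000021485, chromosome 13, 55325168 to 55329758, minus strand), unlike its relatives, is expressed in dividing cells during S phase. Its counts were 239 and 641 in Abl1ko/IL3+ cells and 425 and 402 in Abl1ko/IL3- cells, or 3.71 and 11.8 CPM against 8.88 and 6.93 CPM. Prelid1, on the opposite strand, covers 4.43% of the exon bases of Mxd3, so reads of these genes may not have been told apart either. The Abl1ko/IL3+ replicates differed by 3.18-fold and enclosed both Abl1ko/IL3- libraries. The log2 fold change was 0.029 (standard error 0.67, edgeR adjusted p = 0.999), between -0.56 without Abl1ko/IL3+ replicate 1 and 1.09 without Abl1ko/IL3+ replicate 2.

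Mxi1 (ENSMUSG00000025025, chromosome 19, 53310518 to 53375810, plus strand), also called MXD2, had 101 and 60.1 CPM with IL-3 and 61.7 and 112 CPM without. One replicate of each group was high and the other low, and the log2 fold change was 0.11 (standard error 0.46, edgeR adjusted p = 0.993). Gm10197, on the opposite strand, covers 2.84% of the exon bases of Mxi1 and was not analysed here. Mnt (ENSMUSG00000000282, chromosome 11, 74830920 to 74845725, plus strand), the broadly expressed antagonist, had 43.3 and 33.2 CPM with IL-3 and 33.6 and 36.7 CPM without. Its groups overlapped, with a log2 fold change of -0.12 (standard error 0.33, edgeR adjusted p = 0.985). In TMM-scaled CPM, within the Abl1ko/IL3+ group Mxd1, Mxd4, Mxi1 and Mnt were higher in replicate 1, while Myc, Mycn, Max, Mxd3 and Mlx were higher in replicate 2. For Myc that order depends on the scale, since its deposited FPKM were higher in replicate 1.

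**Figure D2:**
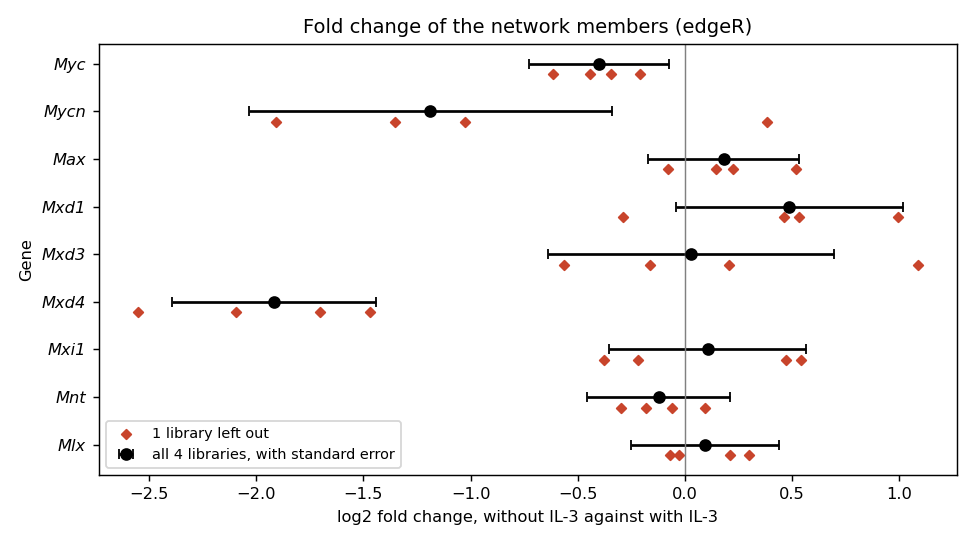
Fold change of each member on a log2 axis, IL3- over IL3+, from edgeR; black points with bars give the fit on all 4 libraries and its standard error, red diamonds the fits with 1 library left out. Myc and Mxd4 stay on 1 side of 0 in all 4 such fits, and the other 7 members have at least 1 fit on the other side.

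Levels of different genes were set against each other per length, in the deposited FPKM. Myc was the highest member in all 4 libraries (78.3 and 70.5 FPKM with IL-3, 47.0 and 67.9 without). Max came next in all 4 (34.3 and 43.7, then 44.8 and 46.3), and these ranges did not overlap. Mlx (13.5 to 17.3), Mxi1 (7.05 to 15.1), Mxd4 (2.13 to 14.7) and Mnt (5.75 to 8.99) followed in the order of their means, but each overlapped its neighbour. Mxd3 (up to 3.97), Mxd1 (1.64 to 4.34) and Mycn (0.68 to 2.79) were the lowest, without a clear order among them. Mxd4 held ranks 3 and 4 of 9 in the Abl1ko/IL3+ libraries and ranks 6 and 8 in the Abl1ko/IL3- libraries.

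The Myc to Max ratio within a library does not depend on how libraries are scaled to each other. Chosen after the values were seen, it was 2.28 and 1.61 with IL-3 and 1.05 and 1.47 without. The groups did not overlap, although the nearest values, 1.61 and 1.47, were closer than the replicates of either group. The 5 antagonists summed to 41.7 and 28.1 FPKM with IL-3 and to 22.9 and 31.6 FPKM without. Divided by the MYC family (Myc and Mycn), this gave 0.528 and 0.383 with IL-3 and 0.479 and 0.461 without. The ratio differed by 0.063 on the log2 scale, less than the spread between replicates (pooled SD 0.233, n = 2 per group). The makeup of the antagonists was less even than their sum: Mxd4 made up 35.2% and 33.6% of it with IL-3 and 18.1% and 6.73% without. Mxi1 held 25.1% to 47.8%, the most in Abl1ko/IL3- replicate 2, and Mnt held 20.5% to 27.1% throughout. With Mxd4 not summed, a choice made after seeing its values, the ratio was 0.342 and 0.254 with IL-3 and 0.392 and 0.430 without, a log2 difference of 0.48.

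**Figure D3:**
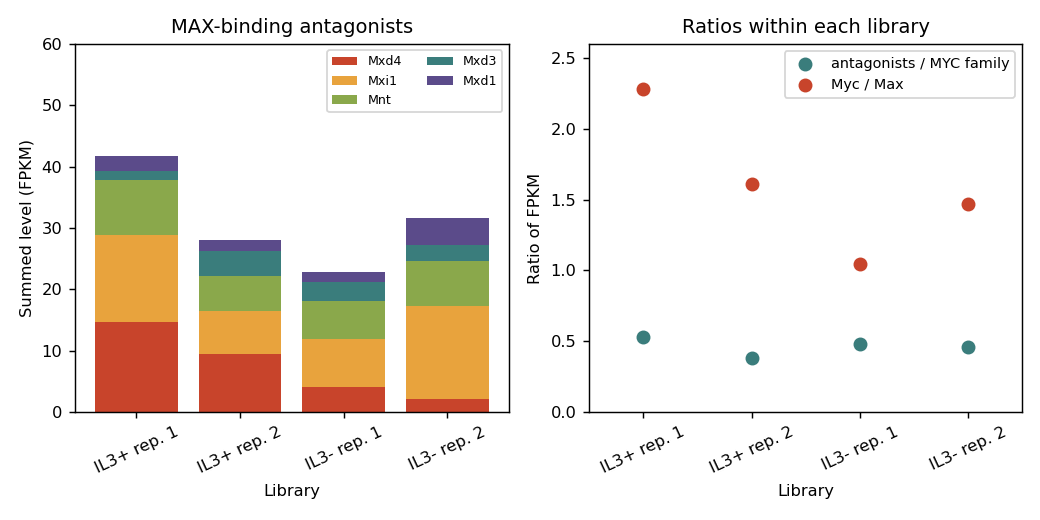
Left, summed level of the 5 MAX-binding antagonists in each library in FPKM, with a colour for each gene; right, ratio of FPKM within each library for the antagonists over Myc plus Mycn and for Myc over Max. The Mxd4 segment is larger in both IL3+ libraries (14.7 and 9.44 FPKM) than in both IL3- libraries (4.15 and 2.13 FPKM), and the antagonist ratio stays between 0.383 and 0.528.

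Genes around the network were taken from lists by role, and 0 of the 87 tested passed the adjusted threshold (edgeR), with 3 at an unadjusted p under 0.05 (against 5.91% of all genes tested). Among 10 coactivators, 4 were higher and 6 lower without IL-3 (median log2 fold change -0.044, and 0.066 without Abl1ko/IL3+ replicate 2). Ruvbl1 and Ruvbl2, paired ATPases of chromatin complexes that MYC recruits, had the lowest p. Ruvbl1 had 61.4 and 108 CPM with IL-3 and 42.8 and 40.0 CPM without (log2 fold change -1.04, standard error 0.39, edgeR adjusted p = 0.841), and Ruvbl2 had 101 and 183 against 86.6 and 83.8 CPM. Both Abl1ko/IL3- libraries lay below both Abl1ko/IL3+ libraries for each of them.

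The corepressors were mostly lower: 8 of 10 had a negative log2 fold change, against 8589 of all 16535 genes tested. Their median was -0.38, and it was -0.037 without Abl1ko/IL3+ replicate 2. Hdac1, the histone deacetylase that MXD proteins recruit through SIN3, had 111 and 112 CPM with IL-3 and 43.9 and 70.7 CPM without (log2 fold change -0.96, standard error 0.37, edgeR adjusted p = 0.841). Rbbp7, a histone chaperone of the same complex, had 138 and 152 against 90.8 and 89.8 CPM, and its relative Rbbp4 had 276 and 453 against 264 and 244 CPM. Of the 10 corepressors, 4 did not overlap and were lower (40.0%, against 17.9% of all genes), and 1, Hdac2, did not overlap and was higher (1 of 10, against 19.4%).

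Genes of MYC turnover gave 4 higher and 6 lower, with a median of -0.19 that had no stable sign. It was 0.067 without Abl1ko/IL3+ replicate 1, 0.24 without Abl1ko/IL3+ replicate 2, -0.020 without Abl1ko/IL3- replicate 1 and 0.053 without Abl1ko/IL3- replicate 2. Groups did not overlap for 3 of the 10, Usp36, Huwe1 and Cip2a, all higher without IL-3 (30.0%, against 19.4% of all genes), and for 0 lower ones. Usp36, a nucleolar deubiquitinase that stabilizes MYC, had 15.5 and 14.7 CPM with IL-3 and 28.6 and 23.7 CPM without (log2 fold change 0.80, standard error 0.36, edgeR adjusted p = 0.854). Cip2a, an inhibitor of the phosphatase PP2A, had 31.0 and 25.9 against 41.5 and 33.3 CPM. Stub1, a ubiquitin ligase, and Aurka, a mitotic kinase that binds MYCN, had replicates further apart than the groups: 52.1 and 136 against 154 and 100 CPM for Stub1, and 35.8 and 83.0 against 58.1 and 46.2 CPM for Aurka.

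Of 44 genes known to be activated by MYC, 29 were lower and 15 higher without IL-3 (34.1% higher, against 48.1% of all genes tested), with a median log2 fold change of -0.21. The median was 0.26 without Abl1ko/IL3+ replicate 2 and -0.038 without Abl1ko/IL3- replicate 2. By library, the list's median deviation from each gene's mean was -0.32 and 0.40 on the log2 scale with IL-3 and 0.16 and -0.16 without, so the 2 Abl1ko/IL3+ replicates were the extremes. Groups did not overlap for 9 lower genes (20.5%, against 17.9%) and 4 higher ones (9.09%, against 19.4%). Slc2a1, the glucose transporter GLUT1, had the lowest p of the list. It held 44.8 and 46.2 CPM with IL-3 and 94.9 and 189 CPM without, a log2 fold change of 1.64 (standard error 0.44, edgeR adjusted p = 0.727). Tert, the telomerase reverse transcriptase, had 1.95 and 1.47 CPM with IL-3 and 0.61 and 0.62 CPM without (log2 fold change -1.48, standard error 0.62, edgeR adjusted p = 0.853). The most abundant genes of the list showed no separation. Pkm, a glycolytic enzyme, had 2504 and 2473 against 2353 and 2589 CPM, and Ptma, encoding prothymosin alpha, had 1008 and 1879 against 2209 and 1634 CPM.

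CACGTG was present in the promoter window of 9 of the 35 MYC-activated genes with a window (25.7%), among them Cdk4, Ldha, Nme1, Apex1 and Eif4e. Their median log2 fold change was -0.21, and that of the 26 genes without the motif was -0.19. Over all tested genes with a window, the median was -0.062 for the 1152 genes with CACGTG and -0.052 for the 9156 genes without it.

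Of 11 genes known to be repressed by MYC, 9 were tested, and Cdkn1c and Cdkn2b had at most 4 counts in any library. A higher level without IL-3 was found for 6 and a lower one for 3 (66.7% higher, against 48.1% of all genes tested). The median log2 fold change was 0.58. It ranged from 0.24 to 0.86 when single libraries were left out and was 0.15 with limma on log2(FPKM + 1). Gadd45a, a growth arrest gene, had 41.6 and 45.4 CPM with IL-3 and 62.9 and 92.1 CPM without (log2 fold change 0.83, standard error 0.35, edgeR adjusted p = 0.850). Fth1, the ferritin heavy chain, had 474 and 943 against 932 and 1494 CPM. Cdkn1a, the cell cycle inhibitor p21, had 306 and 292 against 139 and 306 CPM, and only Abl1ko/IL3- replicate 1 was low. Groups did not overlap for 2 higher genes, Gadd45a and Thbs1 (22.2%, against 19.4%), and 0 lower ones. Thbs1 was near the floor, with 8 and 0 counts with IL-3 and 26 and 12 without.

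**Figure D4:**
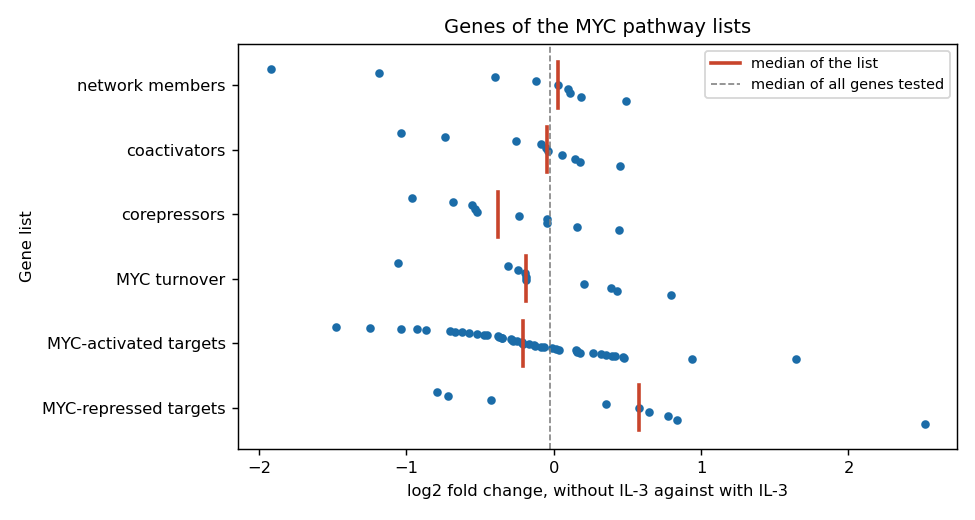
Fold change on a log2 axis, IL3- over IL3+, for each tested gene of the network and of 5 surrounding lists (points), with each list's median (red bar) and the median of all 16535 genes tested (dashed line, -0.027). Medians run from -0.38 for the corepressors to 0.58 for the MYC-repressed targets, and 0 of the points passed the adjusted threshold.

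Of the 87 genes on these lists, those whose profile over the 4 libraries lay nearest to Myc were Npm1, Ddx18 and Eif2s1. Likeness was the root mean square difference of log2 CPM after centring each gene on its own mean, and with 4 libraries it is only a description. It was 0.125 for Npm1 (nucleophosmin), 0.133 for Ddx18 (a nucleolar RNA helicase) and 0.154 for Eif2s1 (a translation initiation subunit). Myc deviated from its mean by 0.15 and 0.26 on the log2 scale with IL-3 and by -0.41 and 0.0011 without. Npm1 followed with -0.033 and 0.30, then -0.25 and -0.019. All 3 genes come from the list of MYC-activated targets, which supplied 44 of the 87 genes compared.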

How the data were processed

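RNA was depleted of ribosomal RNA and sequenced on an Illumina HiSeq instrument. According to the study's methods the authors used Rsubread for alignment to GRCm38 and featureCounts for summarizing, while the submitters' processing notes name STAR, Cuffdiff and mm10. Which of these made the raw counts per gene that the authors deposited is not given in the sources used here. The authors also deposited FPKM values, which scale these counts by length and depth. With depth divided out, the ratio of count to FPKM differed by at most 1.04-fold between libraries for nearly all of 12946 genes. Versions, strand setting and pair handling are not given in the sources used here. Gene overlaps came from GENCODE M21 and promoters from RefSeq.

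Counts were analysed with edgeR 4.0.16 (R 4.3.3): filterByExpr, TMM, quasi-likelihood F test, two-sided, Benjamini-Hochberg adjustment over 16535 genes, threshold 0.05. The edgeR step was also run on simulated counts. Their spread between replicates was set well below that of these libraries, and their changes were larger than any member's. The simulation therefore does not show how the test performs on these data. Alternatives used DESeq2 1.42.0, limma 3.58.1 on log2(FPKM + 1) or log2(FPKM + 0.1), other filters, library size only, a replicate block and 3 libraries.

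The members and lists were chosen with earlier results of these data known. Genes named were all members, Mga and Mlxip, and per list the 2 with the lowest p and the 2 most abundant, plus the 3 nearest to Myc in profile; other genes were named after their values were seen. Of 153 listed names, 146 were in the table. The floor covers counting error only.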

Additional observations from a re-analysis of the deposited data

How the results depend on the processing

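With 2 libraries per group the depth did not limit the members (at least 150 counts in each library), but the spread between replicates did. The number of members past the threshold was 0 in every edgeR and limma fit and 1 (Mxd4) with DESeq2. Over all genes the number was 0 with limma at either pseudocount, with unfiltered genes, with at least 10 counts per library and with scaling by library size only, 271 with DESeq2, and 0 to 15 when single libraries were left out. For the 87 genes of the pathway lists it was 0 in each of these fits, and genes of the marker lists were not counted in them. The ratio of antagonists to MYC differed by 0.063 on the log2 scale. This difference was -0.014 without Mnt, 0.050 with Myc alone in the denominator and -0.060 with summed CPM. It became 0.48 with Mxd4 not summed, a choice made after seeing its values. With single libraries left out it ran from -0.17 to 0.29.

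The replicate number as a block gave 0 genes past the threshold (548 unadjusted), 0 members, and -2.00 for Mxd4 (edgeR adjusted p = 0.9998). The labels do not say what the numbers share. Deviations of same-numbered libraries had a correlation of -0.211 across genes, so crossed pairs were added after seeing the data, with 0 genes past the threshold (1136 unadjusted). The block changed no other call.

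Some log2 fold changes that passed no threshold turned sign, and the cause was not tested. Mga gave 0.28 with the replicate block, 0.28 with crossed pairs, 0.0015 with 10 counts in every library and 0.093 and 0.26 with limma. Mlxip gave -0.68 with the block, -0.66 crossed and -0.44 with limma on log2(FPKM + 0.1). Pkm gave 0.024 with library size only and 0.0066 with limma at either pseudocount. With single libraries left out, each in an edgeR fit whose lone sample is assumed to vary like the other group, the ranges were -1.91 to 0.38 for Mycn, -0.076 to 0.52 for Max, -0.29 to 0.99 for Mxd1, -0.56 to 1.09 for Mxd3, -0.38 to 0.54 for Mxi1, -0.30 to 0.097 for Mnt and -0.070 to 0.30 for Mlx. They were -0.66 to 1.24 for Mga, -3.59 to 1.84 for Mlxip, -0.084 to 1.29 for Stub1, -0.66 to 0.54 for Aurka, -0.073 to 0.057 for Pkm, -1.10 to 0.032 for Cdkn1a and -5.27 to 0.74 for Klf10. Over all 12 alternatives Myc stayed between -0.62 and -0.21 and Mxd4 between -2.55 and -1.47.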
